A study of Mus musculus with 6 samples.

Results

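The 8 genes described here are grouped as anergy ligases and diacylglycerol kinases. They are the ubiquitin ligases Cblb, Cbl, Itch, Nedd4 and Rnf128, the ligase adaptor Ndfip1, and the diacylglycerol kinases Dgka and Dgkz. They were chosen by gene name, 8 of 39171 Ensembl identifiers in the deposited libraries, and each name had 1 row. RNA sequencing of splenic CD4+ T cells covered 6 libraries, 1 per mouse, from premenopausal C57BL/6 mice. The AngII group was 3 mice given angiotensin II, the pressor peptide of the renin-angiotensin system, through an osmotic minipump (dose 800 ng/kg/min) over 14 days, starting at 10 weeks of age. The Control group was 3 untreated mice kept for the same 2 weeks from the same age, and nothing in the labels says whether they carried a pump. All 6 mice shared strain and spleen as the source, and the cells were enriched with a magnetic CD4 kit without a further sort by T cell state, so the values pool T cell states and any other spleen cells that remained. The comparison asks how the transcripts of these cells answer a hypertensive stimulus in mice with ovarian function.

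A T cell that meets antigen without costimulation can enter anergy, a lasting state in which a later antigen receptor signal gives little growth or cytokine. Ubiquitin ligases take part by marking proteins of the signalling cascade for removal or re-routing, and diacylglycerol kinases take part by converting diacylglycerol, the lipid that recruits RasGRP1 and protein kinase C theta, into phosphatidic acid. Mice without Cblb, Itch, Ndfip1 or Rnf128 have overactive T cells, and mice without Dgka or Dgkz have T cells that resist anergy.

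Windows of the 250 bases before RefSeq start sites on GRCm38.p6 were read for 6 of the 8 members, 11 windows in all. No window of Itch or Ndfip1 was included, so the counts below do not cover these genes. Cblb, Dgkz and Cbl are shown because, with Nedd4, they form the member pairs with an unadjusted Pearson p under 0.05 described further on. None of these pairs passed after adjustment, and the windows of Nedd4 are not shown. Capitals mark the core of the binding site of NFAT, the calcium-activated factor that drives the anergy program (GGAAA, on either strand). The windows are chr16:52031299-52031548 on the plus strand for Cblb, chr2:91963564-91963813 on the minus strand for the upstream start of Dgkz, and chr9:44234047-44234296 on the minus strand for Cbl.
Cblb: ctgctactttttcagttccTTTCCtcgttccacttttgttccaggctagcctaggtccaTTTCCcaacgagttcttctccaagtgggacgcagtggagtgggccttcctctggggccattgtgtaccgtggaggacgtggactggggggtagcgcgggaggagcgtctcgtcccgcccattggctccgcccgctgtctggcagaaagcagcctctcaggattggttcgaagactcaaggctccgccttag
Dgkz: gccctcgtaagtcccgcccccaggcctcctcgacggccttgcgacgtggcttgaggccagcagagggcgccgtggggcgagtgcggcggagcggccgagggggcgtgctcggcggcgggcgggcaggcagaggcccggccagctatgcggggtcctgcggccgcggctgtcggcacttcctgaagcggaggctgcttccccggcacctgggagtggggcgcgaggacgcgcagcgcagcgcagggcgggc
Cbl: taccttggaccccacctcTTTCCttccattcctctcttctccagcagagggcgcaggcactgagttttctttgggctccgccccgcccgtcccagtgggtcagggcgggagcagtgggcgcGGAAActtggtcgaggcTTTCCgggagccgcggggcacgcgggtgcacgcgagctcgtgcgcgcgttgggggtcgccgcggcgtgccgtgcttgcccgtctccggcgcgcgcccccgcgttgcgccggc
The NFAT core stood 2 times in the Cblb window, 3 times in the Cbl window and 0 times in the Dgkz window shown. The window of the downstream start of Dgkz (chr2:91950349-91950598), which is not shown, held it 1 time. The core was present in 8 of the 11 windows of these members, and in 55.6% of all 32851 windows of this length in the table, so it is a common string. The 11 windows do not stand for separate genes, as Dgka, Dgkz and Nedd4 had more than a single window, and some Dgka windows overlapped. For the Nedd4 windows and some Dgka windows, the first bases after the start were not found near the start of a GENCODE transcript. The site of the early growth response factors (GCGTGGGCG, on either strand) and that of the FOXO factors (GTAAACA, on either strand) were in 0 of the 11 windows, against 0.536% and 3.17% of all windows. The matches marked in capitals do not overlap one another.

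GENCODE M21 on GRCm38 annotates all 8 genes as protein-coding. Cblb (ENSMUSG00000022637) lies on chromosome 16 at 52031225 to 52208048 on the plus strand. Its relative Cbl (ENSMUSG00000034342) lies on chromosome 9 at 44142976 to 44234049 on the minus strand. Itch (ENSMUSG00000027598) lies on chromosome 2 at 155133509 to 155226855, Nedd4 (ENSMUSG00000032216) on chromosome 9 at 72662346 to 72749852, and Rnf128 (ENSMUSG00000031438) on chromosome X at 139563316 to 139673145, all on the plus strand. The adaptor Ndfip1 (ENSMUSG00000024425) lies on chromosome 18 at 38410396 to 38465303 on the plus strand. Dgka (ENSMUSG00000025357) lies on chromosome 10 at 128720134 to 128744855 and Dgkz (ENSMUSG00000040479) on chromosome 2 at 91932824 to 91975864, both on the minus strand. Exons on the opposite strand overlapped 2.20% of the exonic bases of Dgka (Pmel, mean 0.711 FPKM over the 6 libraries) and 3.54% of those of Dgkz (Gm9821, mean 1.85 FPKM), and no other member shared exonic bases with a neighbour. Stretches of at least 200 bases with at least 95% identity to transcripts of other genes were found in Itch (559 bases, 1 predicted gene), Cbl (230 to 304 bases, 13 genes), Dgkz (225 bases, Gm9821) and Nedd4 (200 to 202 bases, 3 genes). The genes matched by Nedd4 were Eapp, Rrm2b and Wdcp, at means of 21.0, 10.7 and 2.84 FPKM over the 6 libraries. Genes matched by Itch and Cbl were at 0 FPKM where the libraries listed them. The labels do not state how the authors' counting split such fragments.

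The libraries held transcripts of helper T cells and RNA of other spleen cells. In AngII replicate 2 the macrophage and monocyte marker sum exceeded the helper T cell marker sum, and such sums do not give shares of cells. The 8 helper T cell markers (Cd4, Cd3e, Cd3d, Cd3g, Cd5, Cd28, Icos and Lck) summed to 1832 to 1986 FPKM in AngII and 1844 to 2135 FPKM in Control. The 4 CD8 T cell markers summed to 16.9 to 20.9 FPKM in AngII and 20.1 to 23.1 FPKM in Control. The highest of them was Cd8b1 at 9.33 to 12.0 FPKM over the 6 libraries, followed by Eomes at 5.45 to 7.35 FPKM. Cd8a stayed below 2 FPKM. The 7 NK cell markers summed to 128 to 169 FPKM in AngII and 140 to 213 FPKM in Control, the 6 erythroid markers to 137 to 615 FPKM in AngII and 256 to 423 FPKM in Control, and the 8 stromal and endothelial markers to 54.3 to 59.3 FPKM in AngII and 51.4 to 55.4 FPKM in Control. Most of the stromal and endothelial sum came from Pecam1, at 48.5 to 52.0 FPKM over the 6 libraries. Cxcl12 was at 1.50 to 4.83 FPKM, and Cdh5, Kdr, Col1a1, Col3a1, Pdgfrb and Madcam1 stayed below 1 FPKM. The 9 macrophage and monocyte markers summed to 1214 to 2456 FPKM in AngII and 964 to 1712 FPKM in Control, with AngII replicate 2 the highest of the 6. The 7 B cell markers summed to 583 to 946 FPKM in AngII and 656 to 1151 FPKM in Control. Most of the B cell sum came from Ighm, at 550 to 1042 FPKM over the 6 libraries, while Cd79a reached 38.0 FPKM at most. The 8 neutrophil markers summed to 25.5 to 79.4 FPKM in AngII and 8.72 to 47.5 FPKM in Control, and the 7 platelet markers to 175 to 241 FPKM in AngII and 105 to 276 FPKM in Control. FPKM values (fragments scaled to transcript length and library size) correct for length, so levels can be set beside each other between genes. In bulk RNA, fewer cells that express a gene and less RNA per cell cannot be told apart.

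The kinases and the adaptor were the abundant transcripts, and the ligases were several times lower. Dgka averaged 207 ± 15.7 FPKM over all libraries (SD, n = 6), above 96.9% of the 11842 genes that reached a mean of 1 FPKM and entered the test. Ndfip1 followed at 197 ± 16.7 FPKM and Dgkz at 137 ± 10.1 FPKM. Among the ligases, Itch was at 31.1 ± 1.44, Cblb at 26.1 ± 3.81, Cbl at 20.7 ± 4.40 and Nedd4 at 14.4 ± 2.12 FPKM. Rnf128, the membrane-anchored ligase also called GRAIL, was at 1.57 ± 0.382 FPKM, above only 6.25% of the genes tested. The ranges over the 6 libraries overlapped for 3 neighbouring pairs in this order, namely Dgka and Ndfip1, Cblb and Cbl, and Cbl and Nedd4. Within libraries, Dgka exceeded Ndfip1 in 4 of 6, Cblb exceeded Cbl in 6 of 6, and Cbl exceeded Nedd4 in 5 of 6. The other 4 neighbouring pairs had separate ranges.

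**Figure D1:**
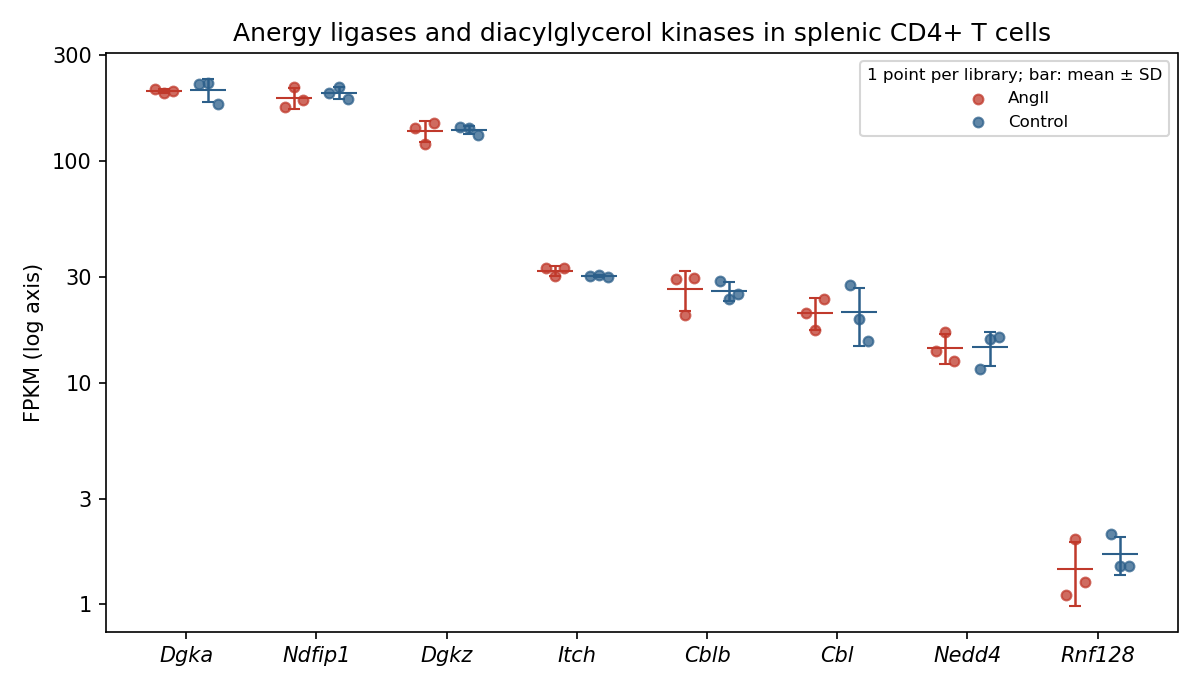
FPKM (log axis) of the 8 genes in each AngII library (red, left of each pair) and each Control library (blue), 1 point per library, with the mean and SD of 3 libraries per group. Dgka, Ndfip1 and Dgkz sit above 100 FPKM, 4 ligases lie between 10 and 35, Rnf128 is at 1 to 2.1, and the points of both groups overlap for each gene.

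No difference between AngII and Control was detected for any of the 8 genes. In limma on log2(FPKM + 1), 0 of 8 passed an adjusted p of 0.05, where 4 of 11842 genes (0.0338%) passed in all. An unadjusted p under 0.05 was found for 0 of 8, against 208 of 11842 genes (1.76%), so neither count sets the 8 apart from other genes. The AngII and Control ranges overlapped for every one of the 8, while the groups were separate for 5.84% of genes tested. Log2 fold changes were positive for 4 members and negative for 4, with a median of -0.003, against -0.004 over all genes tested. The adjusted p was 0.9999 for each member. The 95% intervals of the 8 differences lay between 0.668-fold (Rnf128, lower limit) and 1.47-fold (Cbl, upper limit), on the FPKM + 1 scale that understates changes of low genes such as Rnf128. The labels name no batch, and the p-values measure the spread between these 6 mice.

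Of the RING-type ligases, Cblb tags PI3-kinase and PLC-gamma signalling proteins and sets the need for CD28 costimulation. It was at 29.3, 20.1 and 29.6 FPKM in AngII replicates 1, 2 and 3, and at 28.8, 23.8 and 24.9 FPKM in Control replicates 1, 2 and 3. AngII replicate 2 was the lowest of all 6, and the other AngII libraries lay beside Control replicate 1. The log2 fold change was 0.01 (SE 0.165, limma adjusted p = 0.9999). Cbl, its close relative that acts on the receptor-proximal kinases, was at 20.7, 17.2 and 23.9 FPKM in AngII and 27.4, 19.3 and 15.4 FPKM in Control. The Control libraries held both its highest and its lowest value, so the spread within 1 group exceeded the difference of the means (log2 fold change 0.02, SE 0.220). Rnf128 was at 1.11, 1.97 and 1.27 FPKM in AngII and at 2.07, 1.49 and 1.50 FPKM in Control. Its highest value was in Control replicate 1 and its lowest in AngII replicate 1, with a log2 fold change of -0.14 (SE 0.179) that did not pass.

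Itch and Nedd4 are HECT-type ligases with WW domains, which bind PY motifs of their partners. Itch, which targets JunB and is lost in the itchy mouse, was at 33.0, 30.1 and 32.9 FPKM in AngII and 30.3, 30.5 and 29.8 FPKM in Control. AngII replicates 1 and 3 were above all Control libraries, and AngII replicate 2 lay among them. Of the members, Itch had the smallest p (0.224 unadjusted, limma adjusted p = 0.9999) and the narrowest interval (log2 fold change 0.08, 95% interval -0.06 to 0.22). Nedd4, the founding member of the family, was at 13.8, 16.8 and 12.5 FPKM in AngII and 11.5, 15.7 and 16.0 FPKM in Control. High and low libraries stood in both groups, and the log2 fold change was 0.00 (SE 0.159). Ndfip1, the PY-motif protein that brings these ligases to membranes and releases them from autoinhibition, was at 174, 216 and 187 FPKM in AngII and 202, 215 and 189 FPKM in Control. The AngII libraries spanned all of the Control values (log2 fold change -0.08, SE 0.0975).

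Both kinases convert diacylglycerol at the immune synapse. Dgka was at 210, 202 and 207 FPKM in AngII, a span narrower than that of Control at 221, 224 and 180 FPKM. Control replicate 3 was the lowest of all 6, and the log2 fold change was -0.01 (SE 0.0952). Dgkz, the dominant isoform in restraint of Ras signalling in T cells, was at 141, 119 and 148 FPKM in AngII and 142, 140 and 131 FPKM in Control. AngII held both the highest and the lowest library, with AngII replicate 2 the lowest as for Cblb (log2 fold change -0.03, SE 0.0926). In the authors' deposited table, which names its conditions only by number, all 8 genes were tested and none was significant, with p between 0.31615 (Rnf128) and 0.9774 (Nedd4) and a q of 0.999918 for each. The row named Dgka in that table spans 128706258 to 128766568, wider than the annotated gene.

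Within each family the same gene held the largest share in every library, though by a narrow margin in some. In Control replicate 1, Cblb gave 51.1% and Cbl 48.6% of the CBL family. Of the summed FPKM of 10 diacylglycerol kinases, Dgka gave 51.7 ± 2.16% in AngII and 51.8 ± 1.99% in Control, and Dgkz 34.0 ± 1.79% in AngII and 34.4 ± 1.48% in Control (SD, n = 3). Dgkd, a diacylglycerol kinase with a PH domain, made up most of the rest with 11.6 ± 0.447% in AngII and 11.4 ± 0.482% in Control. Dgkb was listed at 0 in all 6 libraries, and an exact 0 in such files can be a failed estimate. Of the CBL family, Cblb gave 55.7 ± 2.54% in AngII and 56.0 ± 5.37% in Control, while Cblc, an epithelial relative, stayed below 1%. Among 9 NEDD4-type ligases, Itch held 27.3 ± 0.310% in AngII and 26.9 ± 0.145% in Control, the largest share in each library. Ndfip1 supplied 87.1 to 88.0% of the 2 adaptor transcripts over the 6 libraries, and Ndfip2 the remainder. The ratio of Dgka to Dgkz was 1.53 ± 0.147 in AngII and 1.51 ± 0.119 in Control, and that of Cblb to Cbl 1.27 ± 0.128 in AngII and 1.30 ± 0.287 in Control (SD, n = 3). These shares and ratios are descriptions and were not tested.

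The wider pathway was read from 7 lists of ligases, kinases, effectors, substrates and anergy genes, 77 genes outside the 8 that reached a mean of 1 FPKM. In limma 0 of 77 passed the threshold (0.0338% of all genes tested) and 0 of 77 had an unadjusted p under 0.05 (1.76% of all genes tested). The groups were separate for 4 of them (5.19%, against 5.84% of all genes tested), namely Dgke, Dtx1, Bcl10 and Izumo1r. Dgke, a diacylglycerol kinase that prefers arachidonoyl lipids, was at 4.62, 3.99 and 4.48 FPKM in AngII and 3.91, 3.66 and 3.57 FPKM in Control. Each AngII library lay above each Control library, by a small margin (log2 fold change 0.19, SE 0.0854, limma adjusted p = 0.9999). Dtx1, the Deltex ligase induced by NFAT in anergic cells, was at 109, 84.5 and 114 FPKM in AngII and 115, 123 and 121 FPKM in Control. All AngII values were below all Control values, and AngII replicate 2 stood lowest (log2 fold change -0.23, limma adjusted p = 0.9999, and -0.10 without that library). Izumo1r, the folate receptor 4 of regulatory and anergic CD4 cells, had a log2 fold change of -0.19 and Bcl10, the adaptor between protein kinase C theta and NF-kappaB, one of -0.09, neither past the threshold.

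The medians of the 7 lists lay between -0.03 and 0.12, against -0.004 over all genes tested, while their single genes ranged from -0.54 to 0.21. Of 4 other diacylglycerol kinases tested, all had positive log2 fold changes (median 0.12), with Dgki at 0.18, Dgkq at 0.07 and Dgkd at 0.02, and none passed. That median was 0.0537 with a pseudocount of 5, 0.0201 with no filter, and 0.0471 without Control replicate 2. With a mean of at least 5 FPKM only Dgkd remained of this list, so the 0.0201 of that setting is the value of a single gene. The NEDD4 list had a median of 0.03 over 6 genes, with Wwp1 at 0.17, Smurf1 at 0.11, Nedd4l at 0.04 and Ndfip2 at -0.07. The CBL list had a median of 0.01 over 9 genes, with Cd2ap and Crk, adaptors bound by CBL proteins, at 0.11 and 0.09, Grb2 at -0.05 and the phosphatase-like Ubash3a at -0.11. Other restraining ligases and their regulators had a median of 0.00 over 12 genes. Among them Usp8 and Otub1, deubiquitinases of the Rnf128 pathway, were at 0.11 and -0.04, and the ligase gene Rnf125 was at 0.11. Genes that make or read diacylglycerol had a median of 0.01 over 17 genes, with Hras at -0.10 and Plcg1, the phospholipase that makes diacylglycerol, at 0.10. The ligase substrates had a median of -0.02 over 16 genes, with Zap70, Cd247 and Nfkb1 at -0.12, -0.09 and -0.07. Anergy factors and markers had a median of -0.03 over 17 genes, with Nr4a1 at -0.21 and Egr2 at -0.25. Nr4a1 and Egr2 also stand on a list of 11 immediate early genes, which summed to 2177 to 3406 FPKM in AngII and 2345 to 3986 FPKM in Control, and the part of that difference in their values was not tested.

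**Figure D2:**
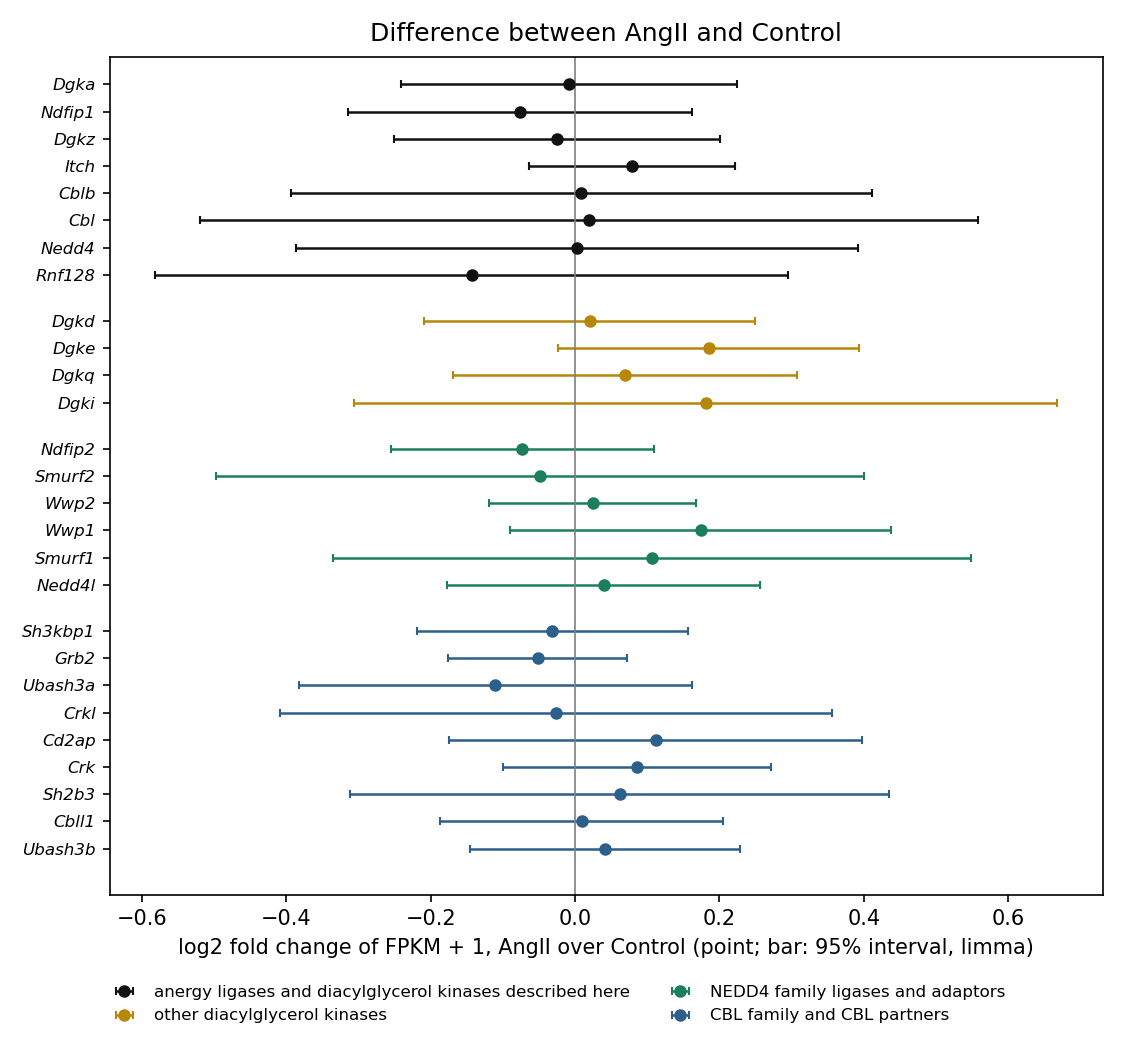
Log2 fold change of FPKM + 1, AngII over Control (x axis), with the 95% interval of limma for the 8 genes described here (black) and for tested genes of 3 related lists (colours), in order of level within each list. Each interval includes 0, and among the 8 genes that of Itch is the narrowest and that of Cbl the widest.

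Libraries of the same group differed from each other in several members. In these 6 libraries Cblb, Cbl and Dgkz were lower where Nedd4 was higher in several cases, without a pair that passed adjustment. Over the 6 libraries Cbl and Nedd4 had a Pearson r of -0.947 (exact permutation p = 0.00556) and a Spearman rho of -0.943 (exact permutation p = 0.0167). The adjusted values over 28 member pairs were 0.156 and 0.187, so the pair did not pass. Without Control replicates 1 and 3, the libraries farthest from the median of Cbl, r was -0.984 over the other 4. Cblb and Dgkz had an r of 0.892 (exact permutation p = 0.0222, adjusted 0.311) and a rho of 0.886 (exact permutation p = 0.0333, adjusted 0.187), and r was 0.936 without AngII replicate 2 and Control replicate 2. Of 28 pairs, 4 had an unadjusted Pearson p under 0.05 and 0 passed after adjustment by either coefficient. The other pairs of the 4 were Cblb with Nedd4 (r -0.856, adjusted exact permutation p = 0.324, rho -0.771) and Nedd4 with Dgkz (r -0.787, adjusted exact permutation p = 0.331, rho -0.943). By Spearman, Cblb with Ndfip1 (rho -0.886) and Cbl with Dgkz (rho 0.886) each had an unadjusted exact permutation p of 0.0333, adjusted 0.187. For Cblb with Nedd4 the unadjusted Spearman exact permutation p was 0.103. Dgka and Dgkz, the kinase pair, had an r of 0.477 (exact permutation p = 0.342) and a rho of 0.429 (exact permutation p = 0.419). Cblb and Cbl had an r of 0.700 (exact permutation p = 0.121) and a rho of 0.657 (exact permutation p = 0.175).

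Transcripts of macrophages moved beside these differences. The 9 macrophage and monocyte markers, led by Hmox1, Vcam1, C1qa and Lyz2, summed to 1265, 2456 and 1214 FPKM in AngII replicates 1, 2 and 3 and to 964, 1366 and 1712 FPKM in Control replicates 1, 2 and 3. AngII replicate 2 and Control replicate 3, the libraries with the highest sums, were also the pair with the highest Nedd4 and the lowest Cbl, and Control replicate 1, with the lowest sum, had the lowest Nedd4 and the highest Cbl. None of the 9 markers was listed at 0 in all libraries. Other lists moved as well. In log2(FPKM + 1), the mean of the B cell markers was 0.82 above its mean of the 6 libraries in Control replicate 3. It was 0.45 below in Control replicate 1, and also 0.38 below in AngII replicate 2. The B cell marker sum of AngII replicate 2 was nevertheless 946 FPKM, of which Ighm gave 908 FPKM. The part of macrophage or B cell RNA in the levels of Nedd4, Cbl, Cblb and Dgkz was not tested. The helper T cell marker sum varied less, from 1832 FPKM in AngII replicate 2 to 2135 FPKM in Control replicate 1.

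**Figure D3:**
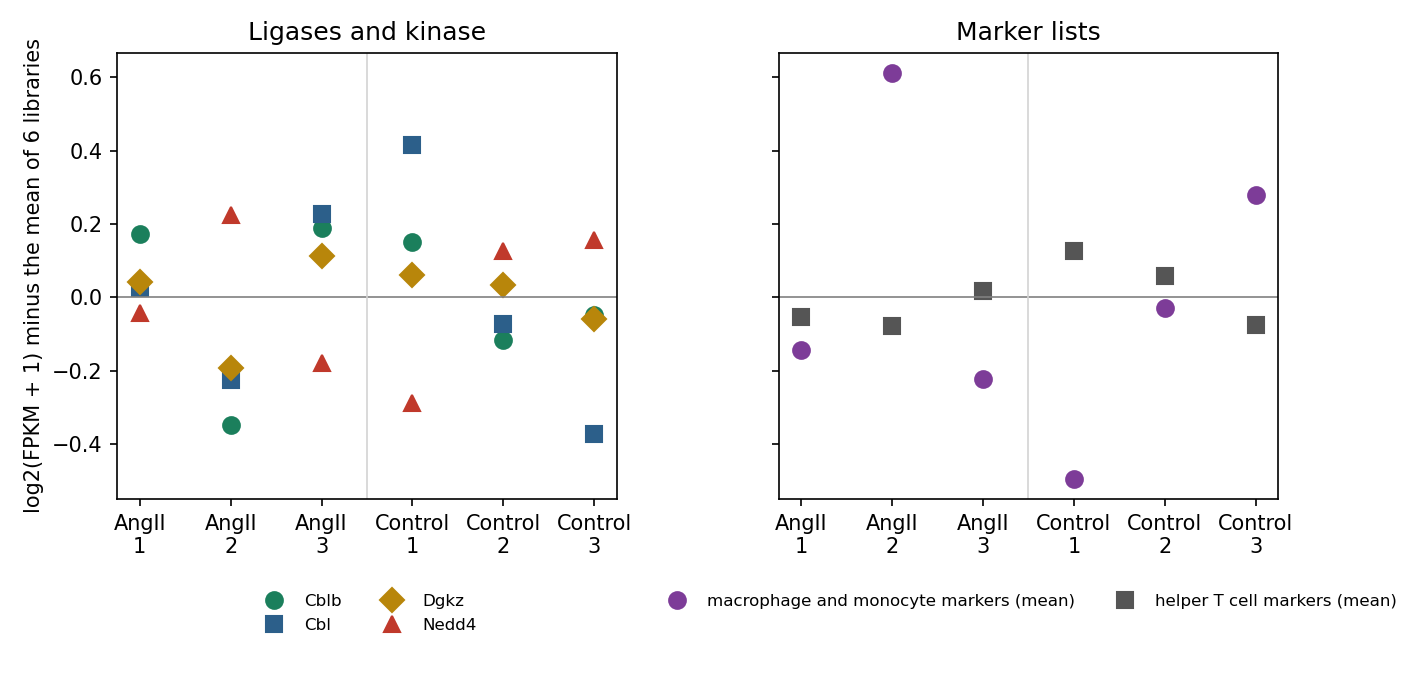
Deviation of each library from the mean of the 6, in log2(FPKM + 1), for Cblb, Cbl, Dgkz and Nedd4 (left) and for the means of the macrophage and helper T cell marker lists (right), AngII libraries before Control libraries. In AngII replicate 2, Cblb was 0.35 below and Nedd4 0.22 above their means while the macrophage list was 0.61 above, and in Control replicate 1 Cbl was 0.42 above and Nedd4 0.29 below while that list was 0.49 below.

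The genes most like each member over the 6 libraries were searched among 10367 tested genes with a plain symbol, by Pearson r of log2(FPKM + 1). With 6 libraries and so many genes, high values arise readily, and the r of those named lay between 0.985 and 0.998. Closest to Cblb were Dnmt3a and Arhgap1, to Cbl Tmem94 and Ranbp2, and to Dgkz Hjurp and Ints5. Closest to Nedd4 were Pparg and Ripk3, and to Itch Kdsr and Acss1. For Ndfip1 they were Cops9 and Rsad2, for Dgka Polr2b and Hsf2, and for Rnf128 Oplah and Sntb2.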

How the data were processed

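Splenic CD4+ T cell RNA from 3 AngII and 3 Control mice was sequenced from TruSeq libraries, per the labels' protocols. The submitters' processing notes name Trimmomatic 0.32, TopHat2 2.1.1, Cuffdiff and the build GRCm38.p3. Which annotation release they used, and which program wrote the files of single libraries, is not stated in the labels. The authors deposited FPKM per gene and library, and a series table with a p-value and a q-value per gene of their own test. Its 2 FPKM columns name no condition and were not used.

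FPKM is not a count, so unscaled log2(FPKM + 1) was tested with limma 3.58.1 in R 4.3.3 for the 11842 genes whose mean reached 1 FPKM (group as the only term, eBayes with trend, two-sided, Benjamini-Hochberg over all genes tested, threshold 0.05). The code was tested on simulated data. The number of fragments per library is unknown. In low genes, 1 fragment was worth 0.896 to 1 times its value in Control replicate 1, so relative depth differed little. At most 1.66% of tested genes had equal values in any 2 libraries, so no library was a duplicate.

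Symbols came from GENCODE M21 by identifier, and all 161 listed genes had a row. Similar transcripts were sought with BLAST 2.17.0. Other computing used scipy 1.17.1 and pandas 2.3.3 in Python 3.11.15, with plots in matplotlib 3.10.9. The genes described and the lists were chosen with earlier results of these data known. Named were all 8 genes, the 4 genes of smallest p in each of 7 lists (2 of them are not reported here), and the 2 most similar genes of each member. Dgkb, Cblc, Pmel, Gm9821 and the leading macrophage markers were named after their values were seen. Alternatives were other pseudocounts, filters, scalings and variance models, the replicate number as a block, and leaving out each library.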

Additional observations from a re-analysis of the deposited data

How the results depend on the processing

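In 15 alternative fits, 0 of the 8 genes passed limma in each of them. Over all genes, 7 passed with no filter, all 7 lower in AngII, against 4 lower and 0 higher in the fit reported. With 1 library left out, 4 to 9 passed, 0 to 5 of them higher and 3 to 8 lower, with 9 without AngII replicate 3, 8 without Control replicate 1 and 7 without Control replicate 3. Same-numbered libraries had correlations of deviations of -0.080, -0.023 and -0.035. No pairing of the mice by replicate number was seen, but with 3 libraries a group this check cannot establish its absence. With the replicate block 3 genes passed. The block changed the call of no member.

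Several differences were so close to 0 that their sign depended on the setting. With quantile normalization the log2 fold change was -0.0022 for Nedd4, 0.0405 for Dgka and 0.0171 for Dgkz. With 1 library left out it ranged from -0.0832 to 0.185 for Cblb, -0.1622 to 0.2317 for Cbl, -0.1402 to 0.0924 for Nedd4, -0.1091 to 0.0461 for Dgka, -0.0875 to 0.0646 for Dgkz, -0.022 to 0.0778 for Nedd4l, -0.012 to 0.1818 for Rnf125 and -0.0304 to 0.0989 for Dgkd. The cause was not tested. Itch (0.0576 to 0.1212), Ndfip1 (-0.1618 to -0.0071) and Rnf128 (-0.2906 to -0.0431) kept their sign with any library left out. Of the related genes, Smurf1 (0.0065 to 0.3024), Wwp1 (0.0611 to 0.2537), Cd2ap (0.0048 to 0.1876), Ubash3a (-0.1941 to -0.0032), Dgki (0.0369 to 0.2995), Nr4a1 (-0.3567 to -0.0663) and Egr2 (-0.4343 to -0.0881) also did, with sizes that depended on 1 library. Rnf128 is not in the fit with a mean of at least 5 FPKM. Summing rows of one name was not run, as each of the 8 genes had 1 row. The correlation of Cbl and Nedd4 lay between -0.9856 and -0.8971 with 1 library left out, and that of Cblb and Dgkz between 0.6632 and 0.9808. With 3 libraries a group and unknown fragment numbers, the 95% intervals show which differences these data do not exclude, and larger ones could still have missed the adjusted threshold.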
